A study of Mus musculus with 6 samples.

Results

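The 7 mouse sirtuin genes, Sirt1 to Sirt7, were examined for H3K4me3 at their promoters in STHdh striatal progenitor cells. They were chosen by gene name from 21911 protein-coding genes. A gene was called marked where a peak lay within 1 kb of any of its GENCODE vM21 transcript starts, and the highest-scoring such peak stood for the gene. Sirtuins remove acetyl and other acyl groups from proteins and consume NAD in doing so, which ties them to the energy state of the cell. Sirt1, Sirt6 and Sirt7 are mainly nuclear, Sirt2 is mainly cytoplasmic, and Sirt3, Sirt4 and Sirt5 are mitochondrial. H3K4me3, trimethylation of histone H3 at lysine 4, collects around the start sites of active and poised genes.

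There were 6 peak lists, with 1 list per condition. Q7SST came from the wild-type line (STHdh7) and Q111SST from the line homozygous for mutant huntingtin, both given vehicle. Mutant cells given 10 uM of a compound gave the other 4 lists, and the compounds were cyproheptadine, loxapine, the diacylglycerol kinase inhibitor DKI and meclizine. All cells were held in medium without serum for 24 hours. Each genotype was a single immortalized line labelled C57BL/6, so the difference between genotypes cannot be told apart from a difference between lines. Treatment was described as triplicate, but each condition had 1 list, so a spread between replicates could not be measured and no test was possible. Every difference given here describes these lists. The lists held 30758 peaks (DKI) to 45564 peaks (loxapine), and the read depth behind them is unknown. Of the cell type markers examined, 4 to 6 of 6 neural progenitor genes were marked in each list, 5 to 7 of 7 striatal lineage genes, 1 to 3 of 5 genes of mature striatal neurons, 1 or 2 of 4 glial genes and 0 of 8 genes of other tissues. Of the genes of mature striatal neurons, Penk was marked in 5 lists, Ppp1r1b in 4, Bcl11b in Q7SST alone, and Drd1 and Drd2 in none.

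Sirt1 is shown by sequence first, because its peak stopped at almost the same base in all 6 lists without reaching the gene's main start. The first line is intron 1 sequence on the minus strand, chr10:63338193-63338392 (GRCm38, as are all coordinates here), with the 33 bases between the outermost and innermost of the 6 peak edges in capitals. The second line is chr10:63339051-63339285, minus strand, in the bases before the first exon. Its capitals mark matches to the GC box GGGCGG, which binds Sp factors, and to the E-box CACGTG, on either strand.
Sirt1 peak edge: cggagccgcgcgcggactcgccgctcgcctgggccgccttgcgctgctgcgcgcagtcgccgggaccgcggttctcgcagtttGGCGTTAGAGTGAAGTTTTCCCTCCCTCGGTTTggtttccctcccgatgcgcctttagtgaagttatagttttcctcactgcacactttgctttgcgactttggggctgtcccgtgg
Sirt1 upstream: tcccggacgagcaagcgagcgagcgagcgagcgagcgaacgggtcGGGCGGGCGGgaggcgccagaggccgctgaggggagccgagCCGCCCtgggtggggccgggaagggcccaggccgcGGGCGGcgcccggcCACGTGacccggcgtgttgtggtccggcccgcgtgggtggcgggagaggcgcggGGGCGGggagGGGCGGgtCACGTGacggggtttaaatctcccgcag

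Base composition differed on either side of the edge. The 726 bases from the outermost edge to the start (chr10:63338310-63339035) had a GC content of 80.3% and an observed over expected CpG ratio of 1.13. They include the 471 bases of exon 1. The 967 bases lying under the peak in all 6 lists had a GC content of 38.2% and a CpG ratio of 0.57.

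The upstream sequences of Sirt2, Sirt5 and Sirt7 are shown because their strength percentiles, described further on, varied most between lists. Each is the longest run without annotated UTR in the 250 bases before the most upstream start that the RefSeq promoter table gives for the gene. The Sirt2 run, chr7:28766641-28766734 on the plus strand, is the whole gap between Sirt2 and the divergent gene Nfkbib. The Sirt5 run is chr13:43365285-43365495, plus strand, and the Sirt7 run is chr11:120625015-120625116, minus strand. Capitals mark a CCAAT box (CCAAT) in Sirt5, and in Sirt7 an ETS site (CCGGAAG) followed by an NRF1 core (GCATGC). The Sirt2 run had no match to the 6 motifs searched.
Sirt2 upstream: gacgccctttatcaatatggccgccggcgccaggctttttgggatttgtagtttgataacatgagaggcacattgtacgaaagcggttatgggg
Sirt5 upstream: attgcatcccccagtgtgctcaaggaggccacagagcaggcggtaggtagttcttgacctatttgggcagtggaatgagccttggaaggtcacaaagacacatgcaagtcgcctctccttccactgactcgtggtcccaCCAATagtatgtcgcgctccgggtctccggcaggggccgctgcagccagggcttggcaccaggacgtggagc
Sirt7 upstream: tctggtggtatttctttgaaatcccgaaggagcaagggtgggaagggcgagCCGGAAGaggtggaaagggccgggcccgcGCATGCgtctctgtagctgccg

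All 7 sirtuins were marked in all 6 lists. Of all protein-coding genes, 59.9% were marked in Q7SST, 58.4% in Q111SST, 55.4% for cyproheptadine, 58.1% for loxapine, 58.6% for meclizine and 55.8% for DKI. Strength is the percentile of a gene's peak score among all peaks of the same list, with 100 the highest, because the scale of the score is not stated and scores of different lists may not be comparable. The median strength percentile of the 7 genes was 93.8 in Q7SST, 89.4 in Q111SST, 87.1 for cyproheptadine, 87.3 for loxapine, 91.3 for meclizine and 84.0 for DKI. The median over all marked coding genes lay between 76.3 (DKI) and 83.0 (loxapine), below the sirtuin median in each list.

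The order of the sirtuins by strength was nearly fixed. Sirt1 ranked highest, Sirt4 second, Sirt6 below them and Sirt7 last in all 6 lists. Sirt2, Sirt3 and Sirt5 took the places between, with Sirt3 above Sirt2 with cyproheptadine alone and Sirt5 level with Sirt2, at the same score, with loxapine. The ranges of Sirt2, Sirt3 and Sirt5 over the lists overlapped, as did those of Sirt4 and Sirt6, and that of Sirt7 overlapped those of Sirt3 and Sirt5. The range of Sirt1 lay above all others.

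**Figure D1:**
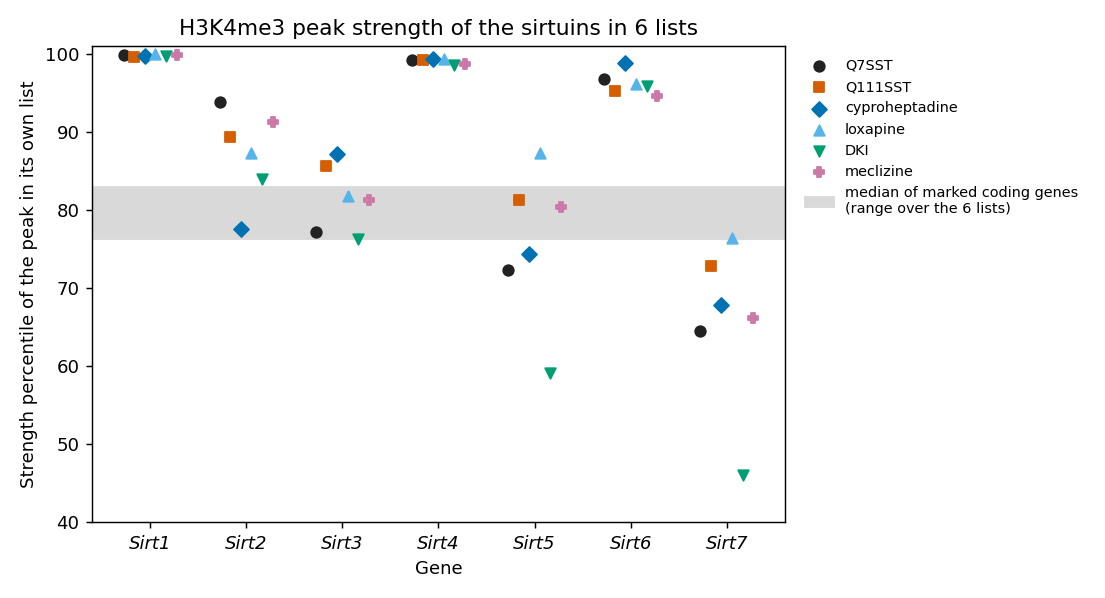
Strength percentile of each sirtuin's peak (y axis, percentile among all peaks of the same list) in the 6 lists (coloured symbols), with the range of the medians of all marked coding genes as a grey band. Sirt1, Sirt4 and Sirt6 lie above the band in every list, and the DKI values of Sirt5 (59.1) and Sirt7 (46.1) lie lowest for those genes.

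Among the nuclear sirtuins, Sirt1, which deacetylates transcription factors such as p53 and the FOXO proteins, had one of the strongest peaks of each list. Its peak ranked 46th of 38392 peaks in Q7SST, 142nd of 40406 in Q111SST, 76th of 33721 for cyproheptadine, 22nd of 45564 for loxapine, 51st of 38577 for meclizine and 91st of 30758 for DKI. The percentile thus stayed between 99.64 (Q111SST) and 99.95 (loxapine). Its width was 1062 bp in Q7SST, 1505 bp in Q111SST, 1148 bp for cyproheptadine, 1103 bp for loxapine, 1097 bp for meclizine and 999 bp for DKI. The list in which the peak was widest, Q111SST, was thus the one in which it ranked lowest.

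In 5 lists the Sirt1 peak lay within intron 1, between the first exon (chr10:63338565-63339035 in the RefSeq-start transcript) and the second (chr10:63336980-63337096). In Q111SST it also extended over exon 2. Its edge toward the start fell between positions 63338277 and 63338309, a spread of 32 bp over the 6 lists, and stopped 726 to 758 bp short of the main start at 63339035. The opposite edge ranged over 519 bp, from 63336792 to 63337311. No list had a peak over the main start. Of the 5 distinct annotated Sirt1 starts, 1, within exon 2, lay under the peak in Q111SST, and 0 lay under any peak in the other 5 lists. A second peak, within 1 kb of the start of the longest transcript (chr10:63381704), was present in all 6 lists with percentiles of 81.4 to 92.9. It lay on the side of the divergent gene Dnajc12, a J-domain co-chaperone gene whose start is 739 bp away. This peak covered that Dnajc12 start (chr10:63382443) in every list except cyproheptadine, and no Sirt1 start in any list. A further, weaker peak lay within the gene, more than 1 kb from any start (chr10:63327149-63327598 in Q111SST). It was also present in every list, with percentiles from 17.1 (meclizine) to 70.9 (loxapine).

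A start left uncovered by the gene's peak was a minority pattern, and its frequency varied with base composition. The RefSeq start lay under the peak in 36 of the 42 combinations of sirtuin and list, and the other 6 were all Sirt1. Among coding genes with a peak within 1 kb of the RefSeq start, 76.8% (cyproheptadine) to 86.7% (meclizine) had the start under the peak. Within 500 bp of its start, Sirt1 had a GC content of 75.5%, at or above that of 99.3% of 16522 coding genes. Bins of GC content were set after this value was seen. Where GC content was 50% to 60%, the start lay under the peak for 87.7% (cyproheptadine) to 91.5% (meclizine) of genes. Where it was 75% or more, as for Sirt1, the share was 8.20% (10 of 122 genes, cyproheptadine) to 24.4% (33 of 135, Q7SST). In Q111SST it was 16.7% (22 of 132). The other 6 sirtuins had GC contents of 45.4% (Sirt4) to 63.1% (Sirt7). The part of base composition in the position of the Sirt1 peak was not tested.

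**Figure D2:**
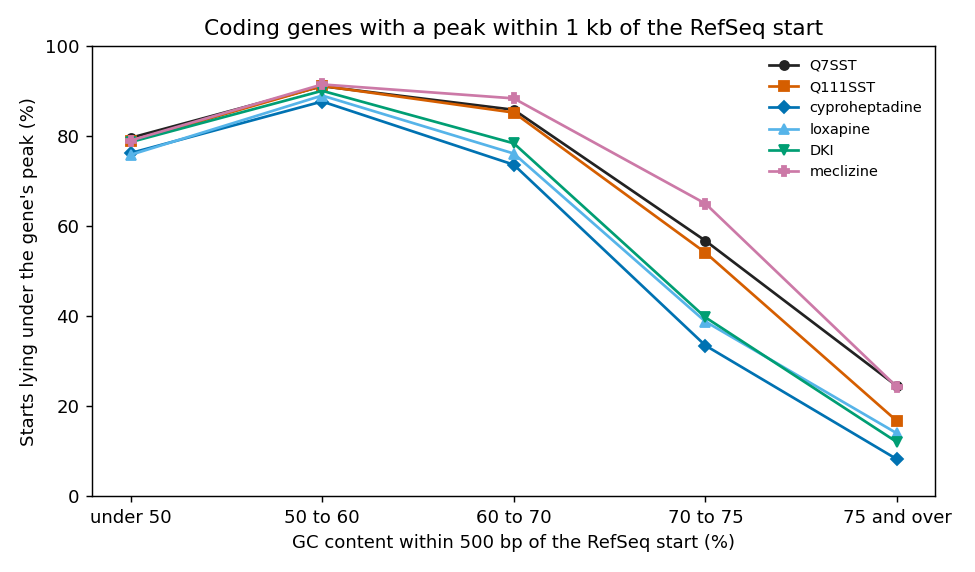
Share of coding genes with a peak within 1 kb of the RefSeq start whose start lies under that peak (y axis, percent) by GC content within 500 bp of the start (x axis), with 1 line per list. In each list the share is highest at 50% to 60% GC and lowest at 75% and over, the bin that holds Sirt1.

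Sirt6, a chromatin-bound deacetylase with roles in DNA repair and telomere maintenance, had strength percentiles of 96.8 in Q7SST, 95.2 in Q111SST, 98.8 for cyproheptadine, 96.1 for loxapine, 94.5 for meclizine and 95.9 for DKI. The cyproheptadine value was highest and its peak there was the narrowest. Its widths were 1171, 1108, 838, 1060, 1056 and 943 bp in the same order of lists. The peak covered all 4 annotated Sirt6 starts in every list. Ankrd24, on the other strand, has a start 743 bp from a Sirt6 start and was assigned the same peak by the 1 kb rule, but the peak did not reach that start in any list.

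Sirt7, a nucleolar enzyme linked to transcription of ribosomal RNA genes, had the lowest strength in each list. Its percentile was 64.5 in Q7SST, 72.8 in Q111SST, 67.8 for cyproheptadine, 76.4 for loxapine, 66.2 for meclizine and 46.1 for DKI. The range of 30.3 points was the widest of the 7 genes, ahead of 28.2 points for Sirt5, and compares with a median range of 14.4 points over the 11713 coding genes marked in all 6 lists. The place of Sirt7 in this order depended on the scale. With lists of equal size the range was 22.0 points for Sirt5 and 19.0 points for Sirt7. As a percentile among marked promoters alone it was 38.2 points for Sirt2, 36.3 points for Sirt5, 24.4 points for Sirt3 and 23.0 points for Sirt7. With a 5 kb window, where another peak stood for Sirt7, its range was 8.70 points. Its widths were 1325, 1351, 1124, 1210, 1299 and 1132 bp in the same order of lists. The widest Sirt7 peak was 1.2 times the narrowest. Part of the peak lies over the last exon of an upstream gene that ends 102 bases before the Sirt7 start. Another part lies over Mir6936, a microRNA annotated on the same strand within the Sirt7 gene. H3K4me3 under such a peak cannot be divided among the overlapping genes.

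The 3 coding genes whose 6 percentiles were most like those of Sirt7, by summed absolute difference over the 6 lists, were Rap1gap2 (7.28 points), Hspg2 (11.5 points) and Cavin1 (11.9 points). Rap1gap2 had percentiles of 64.5, 70.7, 67.8, 75.2, 48.0 and 68.3 in the order Q7SST, Q111SST, cyproheptadine, loxapine, DKI and meclizine. Like Sirt7, it was highest with loxapine and lowest with DKI, a likeness that the choice by smallest difference favours.

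Sirt2, the mainly cytoplasmic member, deacetylates alpha-tubulin. Its strength percentile was 93.8 in Q7SST, 89.4 in Q111SST, 77.6 for cyproheptadine, 87.3 for loxapine, 91.3 for meclizine and 84.0 for DKI. It was highest in the wild-type line and lowest with cyproheptadine. Its widths were 1930, 2008, 2032, 2084, 1735 and 1658 bp in the same order. Cyproheptadine, with the lowest strength, thus had the second widest peak. The Sirt2 peak extended further upstream of the start (1042 to 1323 bp) than into the gene (615 to 760 bp) in all 6 lists. Nfkbib, which encodes an inhibitor of NF-kappa-B and starts 95 bp away on the other strand, lay under the same peak in all 6 lists, so the mark cannot be assigned to either gene.

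Among the mitochondrial sirtuins, Sirt3, the main mitochondrial deacetylase, had strength percentiles of 77.2 in Q7SST, 85.7 in Q111SST, 87.1 for cyproheptadine, 81.8 for loxapine, 81.2 for meclizine and 76.3 for DKI. Like Sirt6, Sirt3 was strongest with cyproheptadine. Sirt4 came close to the same pattern, with 99.29 for cyproheptadine and 99.3 for loxapine. It was highest with cyproheptadine in lists of equal size (99.22) and as a percentile among marked promoters (98.54). Sirt3 peaks are described next. The Sirt3 peaks were among the widest of the family, at 1958, 2102, 1901, 2176, 2065 and 1716 bp in the same order of lists. They also covered the start of the divergent gene Psmd13, a proteasome subunit gene with a start 99 bp from a Sirt3 start, in all 6 lists.

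Sirt4, which acts on glutamate dehydrogenase and other mitochondrial enzymes, was the second strongest member. Its percentile was 99.2 in Q7SST, 99.2 in Q111SST, 99.3 for cyproheptadine, 99.3 for loxapine, 98.7 for meclizine and 98.6 for DKI. The range was 0.674 points, and 0.367% of the 11713 coding genes had one as small or smaller. A percentile so near the top of a list has little room to vary. Its widths ran from 1143 bp (Q7SST) to 1407 bp (Q111SST). Sirt4 had the lowest GC content of the family, and no match to the 6 motifs in its promoter.

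Sirt5, which removes succinyl, malonyl and glutaryl groups, had percentiles of 72.3 in Q7SST, 81.3 in Q111SST, 74.3 for cyproheptadine, 87.3 for loxapine, 80.3 for meclizine and 59.1 for DKI. As for Sirt7, loxapine gave the highest value and DKI the lowest. Its width was 1362 bp in Q7SST, 1359 bp in Q111SST, 754 bp for cyproheptadine, 1258 bp for loxapine, 829 bp for meclizine and 1065 bp for DKI. The widths differed mainly within the gene, where the peak reached 972 bp past the start in Q111SST, 398 bp with cyproheptadine and 472 bp with meclizine. Upstream the reach was alike, at 348 to 453 bp over the 6 lists. Loxapine alone had a second peak at an internal Sirt5 start (chr13:43379643-43380236), with a score of 13 and a percentile of 4.96.

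**Figure D3:**
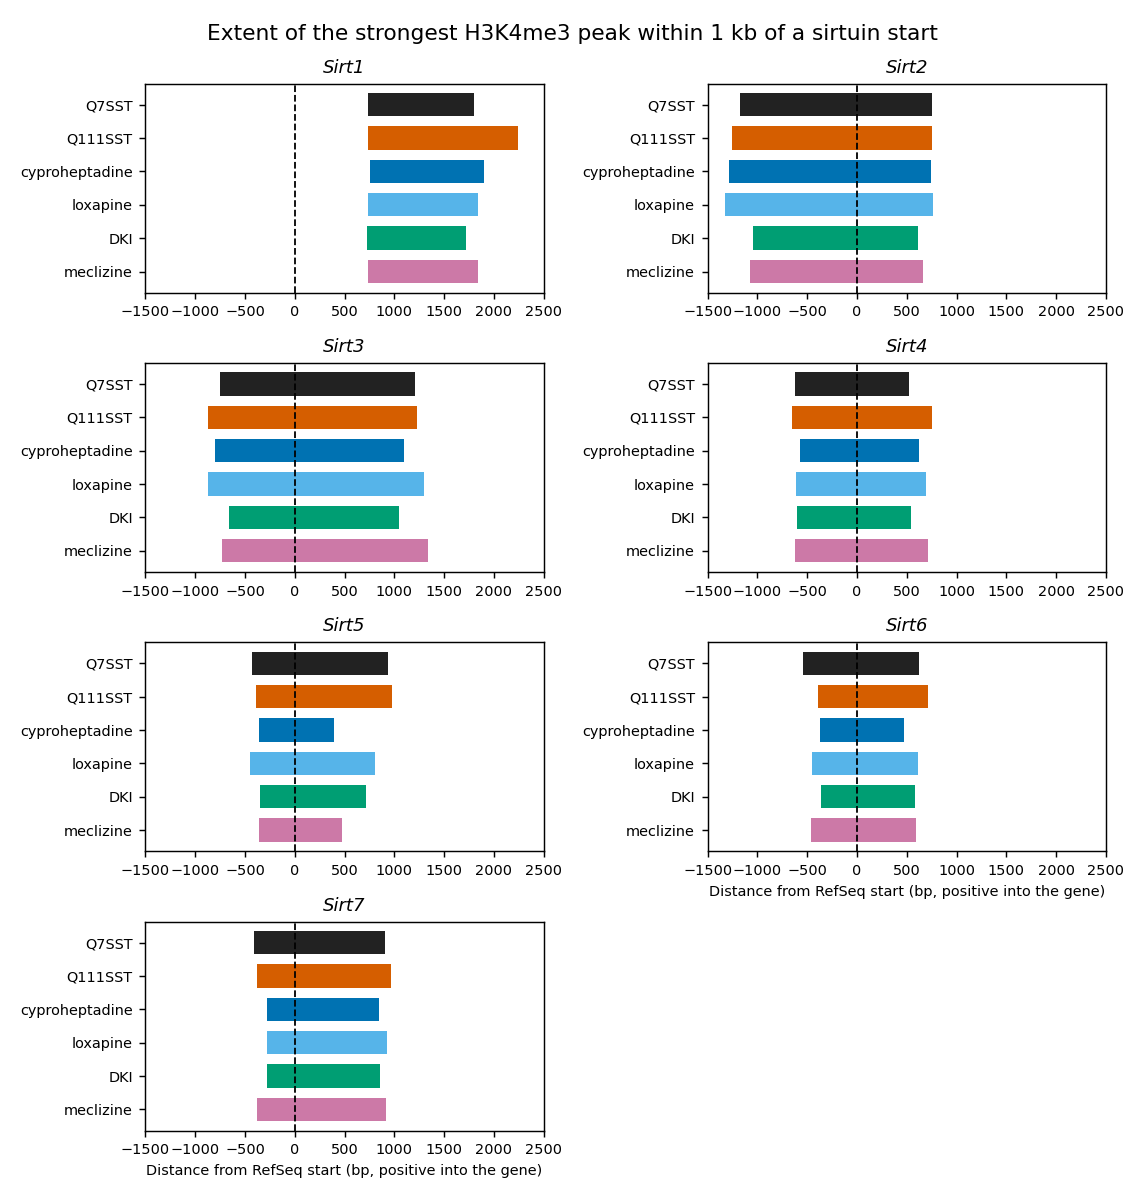
Extent of the peak that stands for each sirtuin (x axis, distance in bp from the most upstream RefSeq start, positive into the gene) in the 6 lists (rows), with the start as a dashed line. The Sirt1 bars all begin 726 to 758 bp into the gene, the Sirt2 bars extend mainly upstream, and the Sirt5 bars for cyproheptadine and meclizine end at 398 and 472 bp.

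Each list was next compared with Q111SST, the mutant cells given vehicle. All 5 comparisons share the Q111SST list. A strength difference of 10 percentile points or more was counted, and the same count over coding genes marked in both lists gave the background.

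Between the lines, 0 of 7 sirtuins were 10 points higher and 0 of 7 were 10 points lower in Q7SST than in Q111SST, where 8.85% of coding genes were higher and 13.0% lower. The difference, Q7SST minus Q111SST, was -9.05 points for Sirt5, -8.44 for Sirt3, -8.28 for Sirt7 and 4.41 for Sirt2. The 3 largest differences all lay below the median over coding genes of -1.04 points.

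With cyproheptadine, 1 of 7 was lower, Sirt2 with a difference of -11.8 points, and 0 of 7 were higher, where 25.9% of coding genes were lower and 3.48% higher. The median difference over coding genes was -3.75 points, and 20.7% of them had a difference at or below that of Sirt2. With loxapine, 0 of 7 were lower and 0 of 7 higher, where 9.41% and 7.10% of coding genes were. Sirt5 showed the largest difference with loxapine, 5.96 points higher. With meclizine, 0 of 7 were lower and 0 of 7 higher, where 10.0% and 4.18% of coding genes were. Sirt7 had the largest difference with meclizine, at -6.60 points.

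With DKI, 2 of 7 were lower, Sirt7 with a difference of -26.7 points and Sirt5 with one of -22.2 points, and 0 of 7 were higher. Of coding genes, 38.8% were lower and 3.55% higher, with a median difference of -6.57 points. A difference as low as that of Sirt7 was seen in 6.74% of coding genes and one as low as that of Sirt5 in 11.7%. The count of 2 in 7 (28.6%) was below the background share, and the DKI list was the shortest. Sirt1, Sirt4 and Sirt6 differed by less than 1 point with DKI. With lists cut to equal size, the difference with DKI was -18.2 points for Sirt7, -16.4 points for Sirt5 and 2.27 points for Sirt6. The same 2 genes were then counted beside 21.5% of coding genes, and at 20 points in the full lists beside 15.0%, so that the count was above the background share under both of these settings. As percentiles among marked promoters, 2 of 7 (28.6%) were lower, level with the 28.5% of coding genes.

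**Figure D4:**
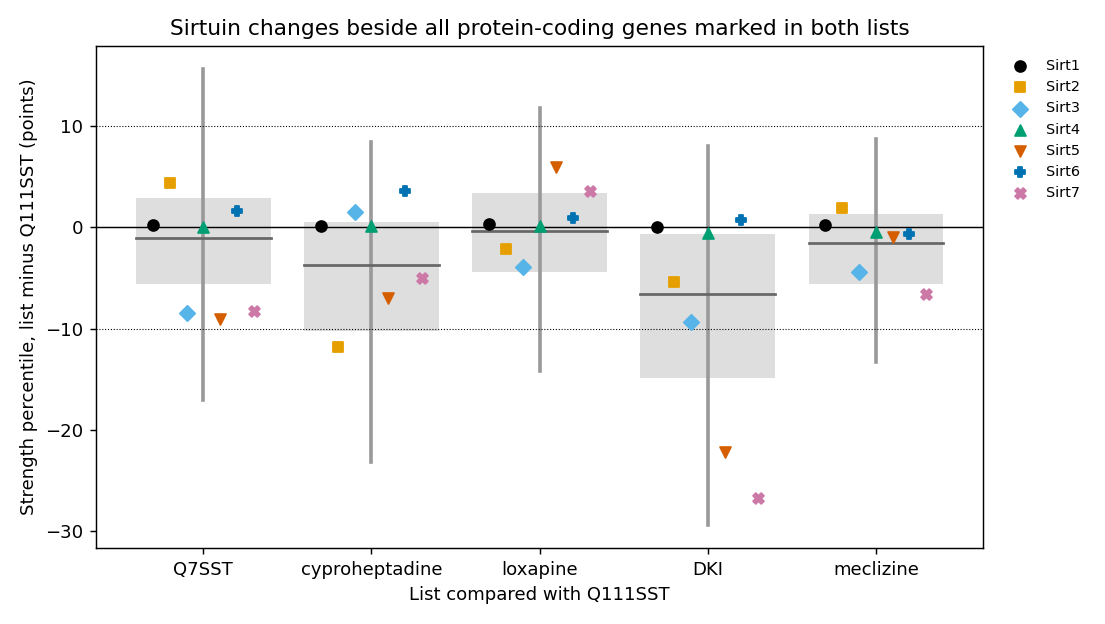
Difference in strength percentile from Q111SST (y axis, points) for the 7 sirtuins (coloured symbols) in 5 comparisons, beside all coding genes marked in both lists (line for the median, grey box for the middle 50%, bar from the 5th to the 95th percentile). Sirt5 and Sirt7 with DKI, and Sirt2 with cyproheptadine, lie below the dotted line at -10 points.

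For width, a ratio of 1.5 or more in either direction was counted. No sirtuin was 1.5-fold wider than in Q111SST in any list, where 5.82% of coding genes were wider in Q7SST, 0.978% for cyproheptadine, 2.52% for loxapine, 3.78% for meclizine and 1.32% for DKI. Peaks narrower by that size were counted for 0 of 7 in Q7SST, 1 for cyproheptadine, 0 for loxapine, 1 for meclizine and 1 for DKI. The background for narrower peaks was 6.90% in Q7SST, 16.0% for cyproheptadine, 8.52% for loxapine, 4.65% for meclizine and 18.8% for DKI.

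The narrower peaks were Sirt5 for cyproheptadine (0.55 times the Q111SST width), Sirt5 for meclizine (0.61 times) and Sirt1 for DKI (0.66 times). For Sirt5, a ratio this low or lower was seen in 10.8% of coding genes with cyproheptadine and in 3.50% with meclizine. Sirt5 with meclizine thus had a narrower peak at nearly the same strength, 80.3 against 81.3. Sirt1 was narrower than in Q111SST in all 5 other lists, at 0.66 to 0.76 times. The median width ratio over coding genes was 0.97 in Q7SST, 0.89 for cyproheptadine, 0.99 for loxapine, 0.94 for meclizine and 0.83 for DKI.

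The promoters of the 7 genes were compared with 16522 coding promoters of the same 300 bases, from 250 before to 50 after the RefSeq start. The GC box was found in Sirt1, Sirt2, Sirt5 and Sirt7 and in 48.0% of all promoters, with 7 matches in Sirt1, overlapping ones counted. The E-box was found in Sirt1, with 2 matches, and in 8.12% of all promoters. The CCAAT box was found in Sirt2 and Sirt5 (38.8% of all). Sirt3, Sirt6 and Sirt7 each held both the ETS site (12.3% of all) and the NRF1 core (8.38% of all), and no sirtuin held a TATA box (TATAAA, 12.8% of all). Both strands were searched. A match describes these letters and is not evidence of binding.

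Unlike the sirtuins, the genes of NAD metabolism and those for sirtuin targets and partners were not all marked in all 6 lists. Of 17 genes of NAD synthesis and consumption, 12 or 13 were marked in each list and 11 in all 6, beside 53.5% of coding genes marked in all 6. Qprt, which starts NAD synthesis from quinolinate, Nmrk2, Nnmt and Bst1 were marked in none. Naprt, the nicotinic acid salvage enzyme, was marked in Q7SST, Q111SST and DKI and not with the other 3 compounds, at percentiles of 30.9 to 47.4. Cd38, an enzyme that breaks down NAD, was unmarked in Q7SST alone. Nmnat3, a mitochondrial enzyme of NAD synthesis, had a percentile of 18.6 in Q7SST and 93.7 in Q111SST, the largest difference of the list.

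With DKI, 7 of the 13 NAD genes marked in both lists were at least 10 points lower than in Q111SST and 0 were higher, beside the coding background of 38.8% and 3.55%. Counts of lower NAD genes were 3 of 12 with cyproheptadine (25.9% of coding genes), 2 of 12 with loxapine (9.41%), 0 of 12 with meclizine (10.0%) and 1 of 12 in Q7SST (13.0%). In Q7SST, 2 of 12 were higher (8.85%). Their median difference was -12.2 points with DKI, where that of the 7 sirtuins was -5.36 points and that of all coding genes -6.57 points.

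Of the 15 genes for sirtuin targets and partners, 12 were marked in all 6 lists, beside 53.5% of coding genes. The urea cycle enzyme gene Cps1 was marked in none, and Acss1, a mitochondrial acetyl-CoA synthetase and Sirt3 target, in Q7SST alone. With DKI, 6 of the 12 marked in both lists were lower and 1 higher, beside 38.8% and 3.55% of coding genes, and Sod2, the mitochondrial superoxide dismutase that Sirt3 deacetylates, had the largest difference, -32.7 points. With cyproheptadine 3 of 12 were lower and 1 higher (25.9% and 3.48% of coding genes), and the largest difference was that of Idh2, another Sirt3 target, at -20.6 points. With loxapine 2 of 12 were lower and 1 higher (9.41% and 7.10%), and the largest was that of Mlycd, a Sirt4 target, at -28.2 points. With meclizine 2 of 12 were lower and 0 higher (10.0% and 4.18%). In Q7SST, 2 of 12 were lower and 0 higher (13.0% and 8.85%), and the largest was that of Tuba1a, an alpha-tubulin gene, at -21.2 points.

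The 11 classical histone deacetylases, which do not use NAD, were marked in every list as the sirtuins were. Their median strength percentile lay between 71.0 (DKI) and 82.4 (loxapine), below the sirtuin median of each list. With DKI, 6 of 11 were at least 10 points lower and 0 higher, beside 38.8% and 3.55% of coding genes, and their median difference was -13.6 points where that of coding genes was -6.57. With cyproheptadine 4 of 11 were lower (25.9% of coding genes), with meclizine 3 (10.0%), with loxapine 1 (9.41%) and in Q7SST 2 (13.0%), and 1 was higher in Q7SST (8.85%). The comparison of these lists with the sirtuins is a description of counts and medians and was not tested.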

How the data were processed

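For H3K4me3 ChIP-Seq, crosslinked chromatin of STHdh cells was digested with micrococcal nuclease, and single-end reads of 50 bp were sequenced. The submitters' processing notes name Trimmomatic 0.36, Bowtie2, SAMtools 1.3, MACS2 and the build mm10, with peak thresholds and any input control not given in the sources used here. Each of the 6 deposited lists gave the position of a peak and a whole-number score made by the authors, with a minimum of 10 and a scale that is not stated. Whether replicates were pooled is not stated. Peak ends lay within GRCm38 chromosomes (0 of 21 exceeded).

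Genes came from GENCODE vM21, excluding the mitochondrial genome. Strength was the mid-rank percentile of the score. Promoter sequences and the most upstream starts came from RefSeq (GRCm38.p6), which matched 7 of 7 sirtuins, and other sequence from the same assembly. The named genes were the sirtuins, genes starting within 1 kb of them, the 3 genes most like the member of widest range, and the NAD, target and histone deacetylase lists, named where not marked in all lists or with the largest change. Of the genes this rule gave, 1 is left out of the report. Members and lists were chosen with earlier results of these data known. Alternatives were windows of 0 and 5 kb, a score threshold, equal list sizes, other starts, percentile references, peak choice, merging and set sizes. Calculations used pysam 0.24.0, scipy 1.17.1, pandas 2.3.3 and numpy 2.4.6 in Python 3.11.15, and were tested on simulated data. With 1 list per condition no test was made.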

Additional observations from a re-analysis of the deposited data

How the results depend on the processing

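The sirtuins remained 7 of 7 marked in each list with a 5 kb window, with lists of equal size (30758 peaks), with starts of protein-coding transcripts and with the most upstream RefSeq start alone, an alternative chosen after seeing the data. With only peaks scoring 47 (the pooled median) or more, 6 were marked for DKI, where the Sirt7 peak scored 42, and 7 in each other list. With a peak required over a start (0 kb), 7 were marked in Q111SST and 6 in each other list, Sirt1 being the one lost. Its loss brought the median strength percentile to 85.5 in Q7SST, 82.4 for cyproheptadine, 80.2 for DKI and 86.2 for meclizine. With a 5 kb window the median was 94.1 in Q7SST, 95.2 in Q111SST, 91.9 for cyproheptadine, 91.9 for loxapine, 94.5 for meclizine and 88.5 for DKI, because Sirt7 took a stronger peak near its far end. With equal list sizes it was 92.2 in Q7SST, 86.0 in Q111SST, 85.9 for cyproheptadine, 81.1 for loxapine and 89.1 for meclizine, and DKI, the shortest list, was unchanged by construction. As a percentile among marked promoters it was 84.1 in Q7SST, 68.6 in Q111SST, 67.7 for cyproheptadine, 60.9 for loxapine, 77.0 for meclizine and 65.4 for DKI. Widths were also summed over all peaks within 1 kb. This adds the peak on the Dnajc12 side of Sirt1 in every list and the second Sirt5 peak for loxapine. The median width was then 1362 bp in Q7SST, 1200 bp for cyproheptadine, 1779 bp for loxapine, 1338 bp for meclizine and 1148 bp for DKI.

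At 5 points, sirtuins with lower strength than in Q111SST numbered 3 in Q7SST (27.4% of coding genes), 3 for cyproheptadine (44.1%), 4 for DKI (55.9%) and 1 for meclizine (27.8%), and 1 was higher for loxapine (18.6%). At 20 points 0 were lower for cyproheptadine (7.68% of coding genes) and 2 for DKI (15.0%). With equal list sizes 1 was lower in Q7SST (14.4%), Sirt5. As percentiles among marked promoters, 1 was higher (22.4% of coding genes) and 2 lower (17.9%) in Q7SST, 1 was higher for cyproheptadine (16.3%), and 1 was higher (17.4%) and 1 lower (18.5%) for loxapine. Sirtuins with narrower peaks numbered 2 in Q7SST (16.8% of coding genes), 4 for cyproheptadine (35.7%), 1 for loxapine (16.1%), 2 for meclizine (17.4%) and 5 for DKI (50.3%) at 1.2-fold. At 2-fold they numbered 0 for cyproheptadine (8.83%), 0 for DKI (9.00%) and 0 for meclizine (2.01%). Strength percentiles of single genes were set against the 95% Wilson interval of the reported percentile, taken as a share of the peaks in its list. Over all alternatives 257 stayed within it and 74 moved. With marked promoters as the reference 39 moved and 3 stayed, and with lists of equal size 29 moved and 13 stayed. Most other settings kept the same peak, so little movement was possible, and the pooled count is no measure of stability. The interval measures no spread between replicates. Of the widths, 161 were equal to the reported width and 7 moved, all 7 with summed widths. No paired analysis was possible because every condition was a single list (1 list each). List length and unknown depth limit every comparison between lists.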
